A study of Mus musculus with 7 samples.

Results

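Expression in the mouse brain was compared between the 10th and the 1st day of oral dosing with a water extract of the herb Ephedra herba (Ephedra stem). The comparison rests on 4 of the 7 arrays of the series, chosen by their titles. They are the 2 arrays of day 10, at 50 and 1250 mg/kg, and the 2 arrays of day 1, at the same doses. The mice were female C57BL/6 animals, labelled as 5 weeks old on every array, and dosing was once a day. The other 3 arrays held 2 samples of day 3, at both doses, and 1 untreated control, whose mice were of the same strain, sex and labelled age. Total RNA from brain tissue was labelled with biotin and read on Illumina bead arrays. No condition was repeated on a further array, and the labels give neither the number of mice behind an array nor how the brain was dissected. The p-values therefore measure a spread between arrays and not the spread between animals. That spread may be technical, and it also holds any difference of the day effect between the doses. The day 10 mice were also dosed on more days than the day 1 mice, so time and number of doses cannot be told apart, and no untreated array of day 10 was among those used here.

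Ephedra contains ephedrine-type alkaloids, which release noradrenaline and act on adrenergic receptors. In neurons, synaptic activity and calcium entry switch on immediate early genes within minutes, without new protein synthesis. Many of these genes encode transcription factors, such as the Fos and Egr families, and others, such as Arc, act at the synapse. Brain tissue also mixes regions, so a marker of 1 region moves with the share of that region in the sample. In such tissue samples, fewer cells of a type and less RNA per cell cannot be told apart.

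Levels are the deposited log values after quantile normalization. They are read as base 2, although no label gives the base, so a difference of 1 would be a doubling. The tests do not depend on the base. The table has values for 13304 of its 25697 probes (51.8%), on every array, and these represented 9009 named genes, each by its brightest probe. The tissue label was checked against 11 measured neuron markers, whose mean level was 5.79 and 5.81 on the day 10 arrays and 5.78 and 5.88 on the day 1 arrays. The 18 measured astrocyte markers averaged 3.64 and 3.80 on day 10 and 3.72 and 3.75 on day 1.

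With the dose held as a block, 126 genes were higher on day 10 than on day 1 and 48 were lower (limma, Benjamini-Hochberg adjusted p under 0.05). These 174 calls are 1.93% of the genes tested, with 1.4% called higher and 0.533% called lower. At an unadjusted p under 0.05 there were 1616 genes (17.9%). Markers of brain regions or neighbouring tissues made up 25 of the calls, 18 higher and 7 lower. The other 149 calls, 108 higher and 41 lower, belonged to no such list and are described here in depth. Their differences ran from 0.47 to 1.34, with a median of 0.59, for the higher genes, and from -1.16 to -0.46, with a median of -0.57, for the lower genes. The median difference of all genes was -0.012. The split between higher and lower calls depended on the scaling. It was 131 higher and 336 lower in the deposited values, where the median of all genes was -0.082, and 170 higher and 266 lower after median scaling, where that median was -0.046.

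All 174 called genes differed in the same direction at both doses, and their 2 day 10 arrays did not overlap with their 2 day 1 arrays. The calls were made on these same arrays with dose as block, which favours genes that agree between doses. This agreement therefore largely follows from the test and is not separate evidence. Among all genes, both day 10 arrays lay above both day 1 arrays for 20.6% and below them for 24.4%. The calls in region and tissue lists were mostly larger at 1250 than at 50 mg/kg, in 22 of 25 genes. Among the 149 other calls the difference was larger at 1250 mg/kg in 82, beside 57.1% of all genes. The plot of the 2 doses against each other shows Pcp2, Prl and Gh far from the origin at both doses, and unlisted calls such as Arc and Atp2a3 well off the diagonal.

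**Figure D1:**
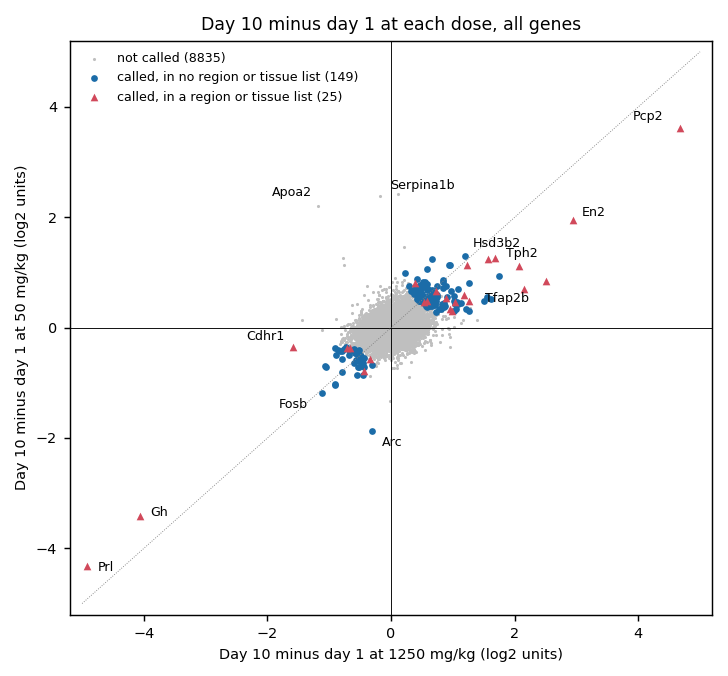
Difference of day 10 minus day 1 in log2 units for each of the 9009 genes, at 1250 mg/kg (horizontal) and at 50 mg/kg (vertical), with the diagonal dotted. The 149 called genes in no region or tissue list (blue) stay between -1.88 and 1.75 on both axes, while Pcp2, Prl and Gh (red) reach beyond 3 at both doses.

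The control array stood outside the test and was set beside the calls. For 133 of the 149 unlisted genes its level was nearer to the day 1 mean than to the day 10 mean, 98 of 108 higher and 35 of 41 lower genes, beside 55.7% of all genes. The control has 1 array and was not tested. On day 3 the mean of the 2 arrays was nearer to day 10 in 101 of the 149, beside 61% of all genes. In 31 of the 108 higher genes the day 3 mean lay above all 4 arrays of the comparison, beside 21.5% of all genes. In 5 of the 41 lower genes it lay below all 4, beside 30.1% of all genes. Day 3 arrays shared the estimate of the spread in the test, so their place is not separate from it.

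Markers of brain regions and other tissues moved with these calls. Of 16 measured cerebellar markers 8 were called higher, with a median difference of 0.65. At 50 and 1250 mg/kg, their mean level was 2.03 and 2.77 on the day 10 arrays and 1.34 and 1.41 on the day 1 arrays. Of 15 hindbrain markers 7 were called higher, with a median of 0.50. Among them, Tph2, the enzyme of serotonin synthesis in neurons, had levels of 1.26 and 1.76 on day 10 and 0.00491 and 0.20 on day 1, with a difference of 1.41 ± 0.13 (standard error, 2 arrays per day, adjusted p = 3.86e-05). Slc6a4, the serotonin transporter, had 0.099 and 0.60 on day 10 and -0.49 and -0.59 on day 1 (0.89 ± 0.14, adjusted p = 0.00393). Sncg, gamma-synuclein, had 2.50 and 3.02 on day 10 and 2.03 and 1.99 on day 1 (0.75 ± 0.16, adjusted p = 0.0219), with 2.76 in the control, and its call was lost without either array at 1250 mg/kg (0.40 without the day 10 array, 0.68 without the day 1 array). Of 31 cortical and hippocampal markers 27 had negative differences (median -0.15, 1 called higher and 2 lower), as had 19 of 22 striatal markers (median -0.19, 0 called). The 6 measured pituitary genes averaged 1.13 and 1.21 on day 10 and 2.45 and 2.77 on day 1. Their median difference was only -0.15, beside -4.62 for Prl and -3.74 for Gh, which were called lower. On day 10 both were in the lowest 5% of levels, with -0.69 and -0.81 for Prl and -0.81 and -0.69 for Gh. The sizes of these 2 differences therefore depend on that floor. The control, at 0.91 for Prl and 0.074 for Gh, lay nearer to day 10 than to day 1. On day 3 the pituitary genes averaged 2.50 at 50 mg/kg and 1.37 at 1250 mg/kg, and in the control 1.60. The 15 liver genes averaged 1.55 and 2.46 on day 10 and 0.77 and 2.61 on day 1, so they were high on both arrays at 1250 mg/kg, and 0 were called. The part of these shifts in the results below was not tested.

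Among the lists, the immediate early genes held the most lower calls. Of 46 measured members 8 were called lower, beside 0.533% of all genes, and 0 higher. Differences were negative in 42, and in 28 both day 10 arrays lay below both day 1 arrays, beside 24.4% of all genes. The median of the list was -0.33, beside -0.012 for all genes. This list, like the others, was chosen with earlier results of these data known, so its shares describe it and are not separate evidence. The mean level of the 46 genes was 2.39 and 2.54 on the day 10 arrays and 2.82 and 2.82 on the day 1 arrays, with 2.69 and 2.69 on day 3 and 2.74 in the control. The 8 called genes were Fosb, Arc, Egr2, Egr4, Nfil3, Csrnp1, Sik1 and Rasl11a. An entry in the RefSeq promoter table (assembly GRCm38.p6) was matched for 6 of the 8, all but Arc and Sik1. The 250 bases before the start are shown for Fosb and Egr4, the 2 members called in every processing setting that tested them, and for Nfil3, whose day 3 values lay at its day 10 values. Capitals mark TGACG on either strand, the core of the cAMP response element, which binds factors of the CREB and ATF family. The windows are chr7:19310046-19310295 (minus strand), chr6:85513590-85513839 (minus strand) and chr13:52981040-52981289 (minus strand).
Fosb: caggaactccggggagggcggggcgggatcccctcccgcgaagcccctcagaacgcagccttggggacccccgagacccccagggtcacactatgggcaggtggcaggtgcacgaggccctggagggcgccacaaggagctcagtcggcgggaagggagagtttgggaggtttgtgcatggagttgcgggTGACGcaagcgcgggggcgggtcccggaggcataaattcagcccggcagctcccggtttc
Egr4: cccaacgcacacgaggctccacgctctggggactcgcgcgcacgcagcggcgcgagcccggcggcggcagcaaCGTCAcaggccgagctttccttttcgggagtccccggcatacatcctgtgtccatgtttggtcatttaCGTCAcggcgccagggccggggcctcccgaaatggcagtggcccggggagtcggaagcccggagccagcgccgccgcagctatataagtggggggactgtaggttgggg
Nfil3: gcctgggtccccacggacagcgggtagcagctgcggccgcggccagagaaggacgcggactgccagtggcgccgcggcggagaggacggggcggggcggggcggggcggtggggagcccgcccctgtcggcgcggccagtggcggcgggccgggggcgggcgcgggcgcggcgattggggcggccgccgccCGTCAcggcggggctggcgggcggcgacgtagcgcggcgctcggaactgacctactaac

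The sequence TGACG was present in all 6 matched genes, beside 30.1% of the 7311 measured genes with an entry and 63.9% of the 36 immediate early genes with an entry. A gene with more than 1 listed start has more chances of a match, and the 6 genes had 13 starts among them. The full element TGACGTCA, which contains it, was in 0 of the 6 and in 3.01% of measured genes. The E-box CACGTG was in 1 of the 6 and in 9.9%, and the CArG box, the element bound by serum response factor, in 1 of the 6 (Egr2) and in 1.5%. Among the unlisted calls TGACG was in 44.4% of the 36 lower genes with an entry and in 28.2% of the 85 higher ones. The 4 motifs were chosen with the called genes known, and a match is only a run of letters.

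Fosb (chromosome 7), a subunit of the AP-1 transcription factor, had levels of 0.71 and 0.87 on day 10 and 1.91 and 2.00 on day 1. Its day 3 levels were 1.46 and 1.64, and the control had 1.66. Fosb was thus below all other arrays on both day 10 arrays, with a difference of -1.16 ± 0.12 (standard error, 2 arrays per day, adjusted p = 5.7e-05). Egr4 (chromosome 6), a zinc finger transcription factor, had 2.89 and 2.98 on day 10 and 3.91 and 3.89 on day 1, a difference of -0.97 ± 0.12 (adjusted p = 0.000562). The levels of Egr4 were 3.87 and 3.59 on day 3 and 3.69 in the control, again above both day 10 arrays. Its relative Egr2 (chromosome 10) had 1.02 and 1.45 on day 10 and 2.06 and 2.36 on day 1, a difference of -0.97 ± 0.20 (adjusted p = 0.0193). Egr2 kept its call in 10 of 13 settings. The call was lost without the day 1 array at 1250 mg/kg (-0.75), with a robust variance and with the mean of a gene's probes.

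Arc (chromosome 15), a protein of the postsynapse that takes part in removing AMPA receptors, differed in size between the doses. At 50 and 1250 mg/kg it had levels of 3.28 and 4.08 on day 10, against 5.16 and 4.40 on day 1, so the difference was -0.32 at 1250 and -1.88 at 50 mg/kg. The fitted difference was -1.10 ± 0.26 (adjusted p = 0.0377). Arc was no longer called without either array at 50 mg/kg, where its difference was -0.30 at its smallest, and it kept its call in 9 of 14 settings. On day 3 the levels were 4.89 and 4.06, and the control had 4.62.

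In the other 4 called immediate early genes the day 3 array at 50 mg/kg already lay nearer to day 10 than to day 1. At 1250 mg/kg the day 3 array did so too, except for Sik1. On day 3 Sik1 had 0.10 at 50 mg/kg and 0.48 at 1250 mg/kg, and Csrnp1 had 2.41 and 2.68. Nfil3, a leucine zipper repressor that also acts in the clock, had 2.54 and 2.53 on day 10 and 3.11 and 3.31 on day 1 (-0.68 ± 0.12, adjusted p = 0.0103). It had 2.55 and 2.51 on day 3 and 3.08 in the control, so the control lay with day 1. Rasl11a, a Ras-like protein, had 1.39 and 1.54 on day 10 and 2.01 and 2.02 on day 1 (-0.55 ± 0.12, adjusted p = 0.0266). On day 3 it was lowest of all, at 1.27 and 1.31, beside 1.88 in the control. Csrnp1, a nuclear protein of transcription control, had 2.35 and 2.65 on day 10 and 3.07 and 3.18 on day 1 (-0.63 ± 0.12, adjusted p = 0.013). Sik1, a kinase that keeps the coactivators of CREB out of the nucleus, had -0.069 and 0.28 on day 10 and 0.64 and 0.80 on day 1 (-0.61 ± 0.12, adjusted p = 0.017). Each of these 4 calls was lost without 1 or more of the arrays, at differences of -0.71 to -0.48. The control level of Sik1, 0.32, lay closer to day 10 than to day 1, unlike that of the other 7.

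**Figure D2:**
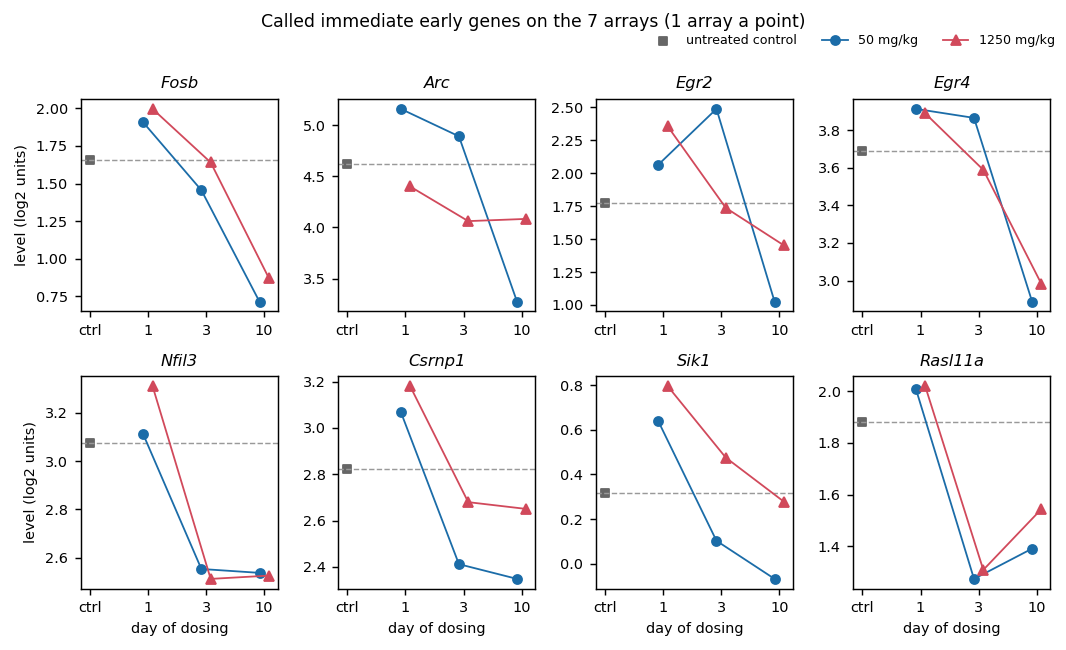
Normalized level in log2 units (vertical, scaled per gene) of the 8 called immediate early genes on each of the 7 arrays, by day of dosing (horizontal), with 1 array a point and the control as a dashed line. Both day 10 points lie below both day 1 points in every panel. Arc is the gene whose 2 doses differ most.

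Other well-known members did not pass the test. Fos had a difference of -0.72 (adjusted p = 0.081), Junb of -0.68 (adjusted p = 0.125), Npas4, a factor specific to neuronal activity, of -0.61 (adjusted p = 0.052), and Egr1 of -0.40 (adjusted p = 0.059). The member with the highest difference, Nrn1, a surface protein that promotes neurite growth, had 0.22 (adjusted p = 0.315). In the deposited values 20 of the 46 were called lower and after median scaling 18, while without the day 1 array at 1250 mg/kg 4 were. The list's median stayed between -0.47 and -0.30 across the settings.

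Genes of the glucocorticoid response and of the clock gave fewer calls. Of 27 glucocorticoid-responsive genes 21 had negative differences, with a median of -0.21. Of these Cdkn1a, the cell cycle inhibitor p21, was called lower, with 2.10 and 1.70 on day 10 and 2.80 and 2.77 on day 1 (-0.88 ± 0.18, adjusted p = 0.0213). Its day 3 levels were 2.06 at 50 mg/kg and 2.78 at 1250 mg/kg, so the 2 doses parted there. Its call was lost without the day 10 array at 1250 mg/kg (-0.51) and without either day 1 array (-0.97 and -0.78 without 1250 and 50 mg/kg). Both other probes of Cdkn1a gave like differences, -0.94 and -0.85. Mgp, also listed as a marker of the meninges, was the called higher member of that list (0.54 ± 0.12, adjusted p = 0.0269), and lost its call in the deposited values and after median scaling. Without the day 1 array at 50 mg/kg the list's median was -0.069.

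Among 24 clock genes 3 were called lower and 1 higher. Of the 24, 14 had positive and 10 negative differences, with a median of 0.037. The called ones, beside Nfil3, were Npas2, Ppp1r3c and Nr1d2. Npas2, a relative of Clock that pairs with Bmal1, had 1.30 and 1.10 on day 10 and 1.68 and 1.86 on day 1 (-0.57 ± 0.13, adjusted p = 0.0387). Ppp1r3c, which brings protein phosphatase 1 to glycogen, had 4.94 and 4.80 on day 10 and 5.34 and 5.32 on day 1 (-0.46 ± 0.11, adjusted p = 0.0387). Nr1d2, a nuclear receptor that represses Bmal1 and Npas2, had 1.50 and 1.96 on day 10 and 1.05 and 1.11 on day 1 (0.65 ± 0.13, adjusted p = 0.0174). It was higher still on day 3, at 1.76 and 2.22, and lower in the control, at 0.89. These 3 calls were kept in 8 of 13 settings for Npas2, 9 of 14 for Ppp1r3c and 10 of 13 for Nr1d2, and all were lost without either array at 1250 mg/kg. Without the day 10 array at that dose Npas2 was -0.36, and without the day 1 array Nr1d2 was 0.45. Npas2 and Nr1d2 were also lost with no dose block. The labels used here give no hour of sampling. Picked from the uncalled members, Arntl, which encodes Bmal1, and Dbp had differences of -0.40 (adjusted p = 0.205) and 0.52 (adjusted p = 0.088). They do not stand for the rest of the list.

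Outside the function lists, Igfbp4 and Irs2 were among the lowest genes. Igfbp4, a binding protein of insulin-like growth factors, had 3.07 and 3.11 on day 10 and 3.87 and 3.91 on day 1 (-0.80 ± 0.11, adjusted p = 0.00155). The control, 3.88, lay with day 1, and both day 3 arrays lay between, at 3.58 and 3.59. Irs2, an adaptor of the insulin receptor, had 4.02 and 4.17 on day 10 and 4.88 and 4.72 on day 1 (-0.71 ± 0.12, adjusted p = 0.00963), with 4.35 in the control. Both were called in every setting tried. Igfbp6, a relative chosen after its values were seen, was also called lower (-0.55 ± 0.12, adjusted p = 0.0266). The secreted serine protease Htra1 had 4.40 and 4.18 on day 10 and 4.81 and 5.002 on day 1 (-0.62 ± 0.12), and its other probe gave -0.66. The secretory pathway kinase Fam20c (-0.64 ± 0.14) and the sulfotransferase Chst2 (-0.61 ± 0.13) were lower as well. The calls of these 3 genes were lost without either array at 1250 mg/kg, where Htra1 was -0.41, Fam20c -0.44 and Chst2 -0.40 without the day 10 array, and -0.52, -0.42 and -0.54 without the day 1 array. The other probe of Fam20c gave only -0.14. Its call was also lost with the mean of a gene's probes (-0.39) and with no dose block.

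The remaining genes among the 20 lowest were of mixed roles. Slc23a3, of the ascorbate transporter family, had 0.83 and 0.34 on day 10 and 1.54 and 1.38 on day 1 (-0.88 ± 0.16, adjusted p = 0.0123). The T cell surface protein Cd6 (-0.69), the death receptor Tnfrsf10b (-0.65), Tmem121b (-0.63), the deubiquitinase Otub2 (-0.62), the heterochromatin protein Bahd1 (-0.59) and ezrin, Ezr (-0.58), which links actin to the membrane, had adjusted p-values from 0.0128 to 0.0249. Slc23a3, Cd6, Tmem121b, Otub2 and Bahd1 were lost without the day 1 array at 1250 mg/kg, when 66 of all genes were called, and Tnfrsf10b and Ezr without either array at 50 mg/kg. Without the day 10 array at 1250 mg/kg, Slc23a3 was -0.57 and Tmem121b -0.37. The 2 other probes of Otub2 gave -0.24 and -0.23, and its call was also lost with the mean of a gene's probes (-0.36).

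The highest unlisted gene was Tfap2b, a transcription factor of the AP-2 family. It had 0.79 and 1.60 on day 10 and -0.14 and -0.15 on day 1 (1.34 ± 0.19, adjusted p = 0.00165), and its day 1 level was in the lowest 5% of levels. Its 2 other probes gave 1.35 and 1.18. The region lists are not complete, and this gene, Atp2a3, Chn2 and Ptprr are known from cerebellar neurons. Atp2a3, a calcium pump of the endoplasmic reticulum, had 2.73 and 3.85 on day 10 and 2.21 and 2.23 on day 1 (1.07 ± 0.22, adjusted p = 0.0183). Chn2, a GTPase activator for Rac, had 4.26 and 5.04 on day 10 and 3.45 and 3.79 on day 1 (1.04 ± 0.16, adjusted p = 0.00258). Ptprr, a tyrosine phosphatase, had 1.21 and 1.90 on day 10 and 0.73 and 0.39 on day 1 (0.99 ± 0.18, adjusted p = 0.0122). Atp2a3 and Ptprr lost their calls without either array at 1250 mg/kg, at 0.44 and 0.51 without the day 10 array and 0.87 and 0.70 without the day 1 array, and Atp2a3 kept its call in 9 of 14 settings. In these 4 genes the difference was larger at 1250 mg/kg, as in most cerebellar markers, and all 4 had their highest level on the day 10 array at that dose.

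Other high genes had near-equal differences at both doses, among them Hsd3b2, Zxda, Prf1, Wsb1 and Smg1. Hsd3b2, an enzyme of the family that makes progesterone and other steroids, had 6.23 and 5.98 on day 10 and 4.94 and 4.77 on day 1 (1.25 ± 0.11, adjusted p = 3.86e-05). The control had 5.35 and day 3 had 5.44 and 5.52, so no other array reached the level of day 10. Hsd3b2 belongs to a family of close copies, so its probe may read a relative. Zxda, an X-linked zinc finger gene, had 3.53 and 3.29 on day 10 and 2.40 and 2.32 on day 1 (1.04 ± 0.12, adjusted p = 0.000219). Prf1, the pore protein of cytotoxic lymphocytes, had 3.54 and 3.37 on day 10 and 2.39 and 2.42 on day 1 (1.04 ± 0.12, adjusted p = 0.000181), with 3.18 and 3.25 on day 3 and 2.49 in the control.

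Wsb1, a substrate receptor of a ubiquitin ligase, had 3.74 and 3.52 on day 10 and 2.88 and 2.67 on day 1 (0.85 ± 0.12, adjusted p = 0.00155). Smg1, the kinase that starts nonsense-mediated mRNA decay, had 4.54 and 4.29 on day 10 and 3.72 and 3.46 on day 1 (0.83 ± 0.11, adjusted p = 0.00127). Mzt1, a part of the complex that nucleates microtubules, had 3.32 and 2.81 on day 10 and 2.08 and 2.15 on day 1 (0.95 ± 0.14, adjusted p = 0.00226), with a smaller difference at 1250 mg/kg, 0.66, than at 50 mg/kg, 1.24. These 6 genes, together with Chn2, Fam126b (0.82 ± 0.13) and Fam76b (0.77 ± 0.12), were called in every setting tried. The others among the 20 highest were Zfp385c, Pld5, Gm5136, Nrep, Col18a1, Gsdmc2, Mrgprf and Ifit3, with differences from 0.77 to 1.05. Of these Zfp385c, Col18a1 and Mrgprf were lost when either the day 10 or the day 1 array at 1250 mg/kg was left out.

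**Figure D3:**
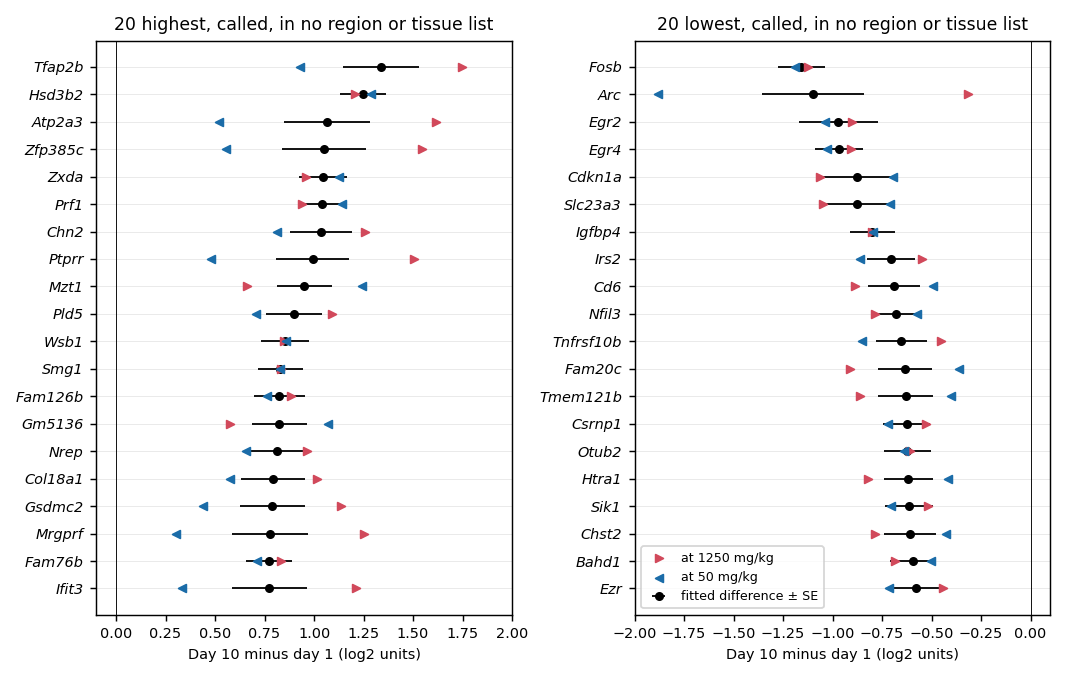
Fitted difference of day 10 minus day 1 in log2 units (black, with its standard error) for the 20 highest (left) and 20 lowest (right) called genes in no region or tissue list, with the difference at 1250 mg/kg (red) and at 50 mg/kg (blue). Igfbp4, Smg1 and Wsb1 differ almost equally at both doses, whereas the 2 doses lie far apart for Arc, Atp2a3 and Mrgprf.

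Genes of RNA binding and splicing leaned to higher values on day 10. Of 32 measured, 27 had positive and 5 negative differences, with a median of 0.32 and Celf4 lowest at -0.15. In 22 both day 10 arrays lay above both day 1 arrays, beside 20.6% of all genes. This list too was chosen with earlier results of these data known. Of the members 2 were called higher and 0 lower, beside 1.4% and 0.533% of all genes. Their mean level was 4.02 and 3.91 on the day 10 arrays and 3.67 and 3.73 on the day 1 arrays, with 3.84 and 3.86 on day 3 and 3.78 in the control. Tardbp, which encodes the RNA-binding protein TDP-43, had 3.66 and 3.47 on day 10 and 2.88 and 2.88 on day 1 (0.69 ± 0.12, adjusted p = 0.0113). Its day 3 levels, 2.86 and 3.01, stayed with day 1, and its 2 dimmer probes gave 0.31 and 0.041. Srsf10, a splicing regulator, had 1.88 and 1.68 on day 10 and 1.28 and 1.18 on day 1 (0.55 ± 0.13, adjusted p = 0.0377). Its 2 other probes gave 0.15 and 0.13, and it kept its call in 9 of 13 settings. With the mean of a gene's probes the calls of Tardbp (0.34) and Srsf10 (0.28) were lost. Other members close to a call, Luc7l2 at 0.51 (adjusted p = 0.052), Hnrnph1 at 0.45 (adjusted p = 0.057) and Clk4 at 0.45 (adjusted p = 0.056), did not pass. The median was 0.17 in the deposited values and 0.21 after median scaling, and without the day 10 array at 50 mg/kg 0 members were called.

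Further called genes that bind or process RNA were chosen after their values were seen and support nothing of the list. Hnrnpdl (0.54 ± 0.12), the splicing regulators Mbnl1 (0.52 ± 0.11) and Mbnl2 (0.49 ± 0.12), Tia1 (0.65 ± 0.14), a protein of stress granules, and Tnrc6a (0.63 ± 0.13), a partner of Argonaute in miRNA silencing, were higher. Also seen after the fact, the chromatin genes Suz12 (0.73 ± 0.14), a subunit of the Polycomb complex that methylates histone H3, and Sirt1 (0.65 ± 0.12), a deacetylase, were higher. Sirt1 had 2.11 and 2.01 on day 10 and 1.43 and 1.39 on day 1, with 1.54 in the control.

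At the synapse the glutamate receptor list had a call in each direction among 13 measured genes. Gria2, the AMPA receptor subunit that limits calcium entry, had 6.49 and 6.39 on day 10 and 6.01 and 5.81 on day 1 (0.53 ± 0.10, adjusted p = 0.0168). Its day 3 levels, 6.49 and 6.40, were as high as on day 10, and the control, 6.01, lay with day 1 at 50 mg/kg. Gria2 kept its call in 8 of 14 settings. The call was lost under both other scalings, at 0.24 with no quantile normalization and 0.28 with median scaling. It was also lost with the mean of a gene's probes (0.35), and the other probe of Gria2 gave only 0.17. Leaving out the day 10 array at 50 mg/kg (0.55) or either array at 1250 mg/kg (0.50 for day 10, 0.48 for day 1) lost it too. Dlg4, the scaffold PSD-95 of excitatory synapses, had 3.41 and 3.65 on day 10 and 3.90 and 4.15 on day 1 (-0.50 ± 0.11, adjusted p = 0.0346), with 4.05 in the control. Cacnb4, a subunit of calcium channels, had 5.17 and 5.12 on day 10 and 4.57 and 4.67 on day 1 (0.53 ± 0.11, adjusted p = 0.0213), and this call too was lost under both other scalings. Ank1, an ankyrin that ties membrane proteins to spectrin, had 4.15 and 4.34 on day 10 and 3.73 and 3.52 on day 1 (0.62 ± 0.12, adjusted p = 0.0168). Its 2 other probes gave 0.93 and -0.024. Dlg4 and Ank1 were lost without either array at 1250 mg/kg, at -0.52 and 0.45 without the day 10 array and -0.47 and 0.49 without the day 1 array.

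Aqp4, Fgf1, Ifit3, Uqcrb, Hspd1 and Elovl6 were each the 1 called member of their list. Aqp4, the water channel of astrocyte endfeet, had 4.53 and 4.88 on day 10 and 4.01 and 4.25 on day 1 (0.58 ± 0.11, adjusted p = 0.0168), and was the 1 call among 18 astrocyte markers, whose median was -0.054. Without either array at 1250 mg/kg the calls of Aqp4 and Fgf1 were lost (0.48 and 0.47 without the day 10 array, 0.59 and 0.39 without the day 1 array). Fgf1, a growth factor, had 3.41 and 3.44 on day 10 and 3.01 and 2.82 on day 1 (0.51 ± 0.12, adjusted p = 0.0387). Ifit3, an interferon-induced gene, had 2.65 and 2.74 on day 10 and 2.32 and 1.53 on day 1 (0.77 ± 0.19, adjusted p = 0.0473). The control level of Ifit3, 2.91, lay above all 4, and the call was lost, at a difference of 0.27, without the day 1 array at 1250 mg/kg, where the gene was lowest.

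Uqcrb and Hspd1, which act in mitochondria, were called higher and had their highest levels on day 3. Uqcrb, a subunit of respiratory complex III, had 3.25 and 3.17 on day 10 and 2.25 and 2.94 on day 1 (0.62 ± 0.15, adjusted p = 0.0452), with 3.96 and 4.14 on day 3. It was the 1 call among 64 genes of oxidative phosphorylation, whose median was 0.034, and was lost without either array at 50 mg/kg. Hspd1, the mitochondrial chaperone Hsp60, had 3.87 and 3.89 on day 10 and 3.35 and 3.47 on day 1 (0.47 ± 0.11, adjusted p = 0.0401), with 4.44 and 4.48 on day 3. Elovl6, which lengthens fatty acids, had 3.48 and 3.24 on day 10 and 2.99 and 2.75 on day 1 (0.49 ± 0.12, adjusted p = 0.0452). The calls of Hspd1 and Elovl6 were kept in 7 and 6 of 14 settings.

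**Figure D4:**
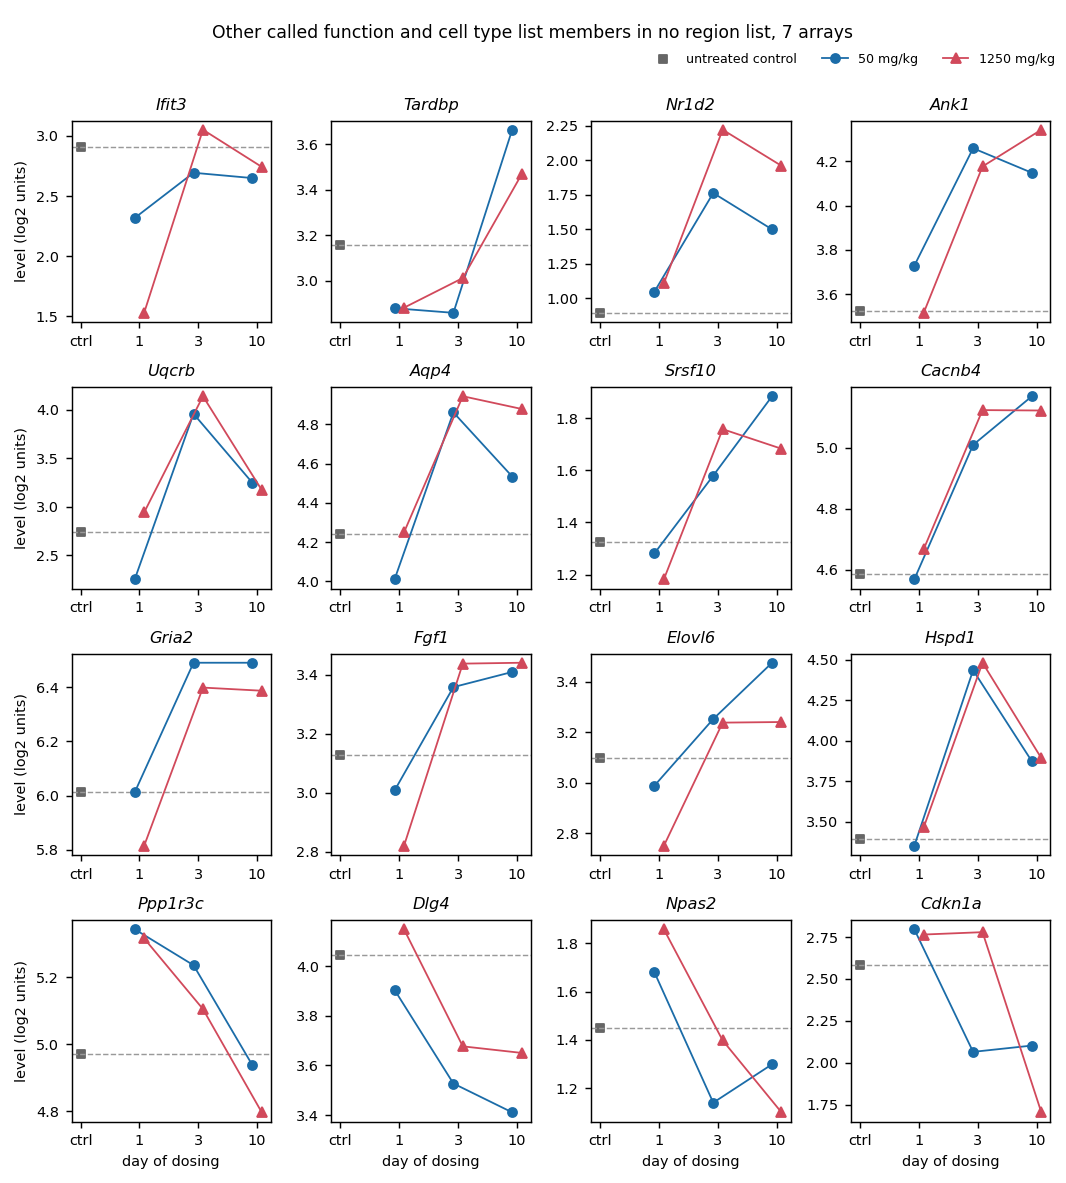
Normalized level in log2 units (vertical, scaled per gene) of the 16 called members of the function and cell type lists that are in no region or tissue list and are not immediate early genes, on the 7 arrays, by day of dosing (horizontal), with 1 array a point and the control as a dashed line. Tardbp parts from its day 1 level on day 10 only, whereas Gria2 and Cacnb4 are already at their day 10 level on day 3, and Uqcrb and Hspd1 peak on day 3.

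Microglial markers gave 0 calls (limma, adjusted p), although all 13 measured members had negative differences, with a median of -0.23. Their mean level was 2.61 and 2.41 on the day 10 arrays and 2.69 and 2.78 on the day 1 arrays, beside 2.82 in the control. C1qb, a chain of the complement protein C1q, had the lowest difference, -0.45 ± 0.13 (adjusted p = 0.0759). Without either of the 2 arrays at 1250 mg/kg 4 of the 13 were positive. The oligodendrocyte list (26 measured, median 0.087), the endothelial and mural list (25 measured, median 0.032), the cytosolic ribosome (52 measured, median -0.037) and the proteasome (26 measured, median 0.0063) had 0 calls each, beside 1.93% of all genes. Of potassium channels 36 were measured with 0 called, and Kcng4, with 1.08 and 2.03 on day 10 and 0.94 and 0.64 on day 1, had the highest difference (0.76 ± 0.21, adjusted p = 0.0685).

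**Figure D5:**
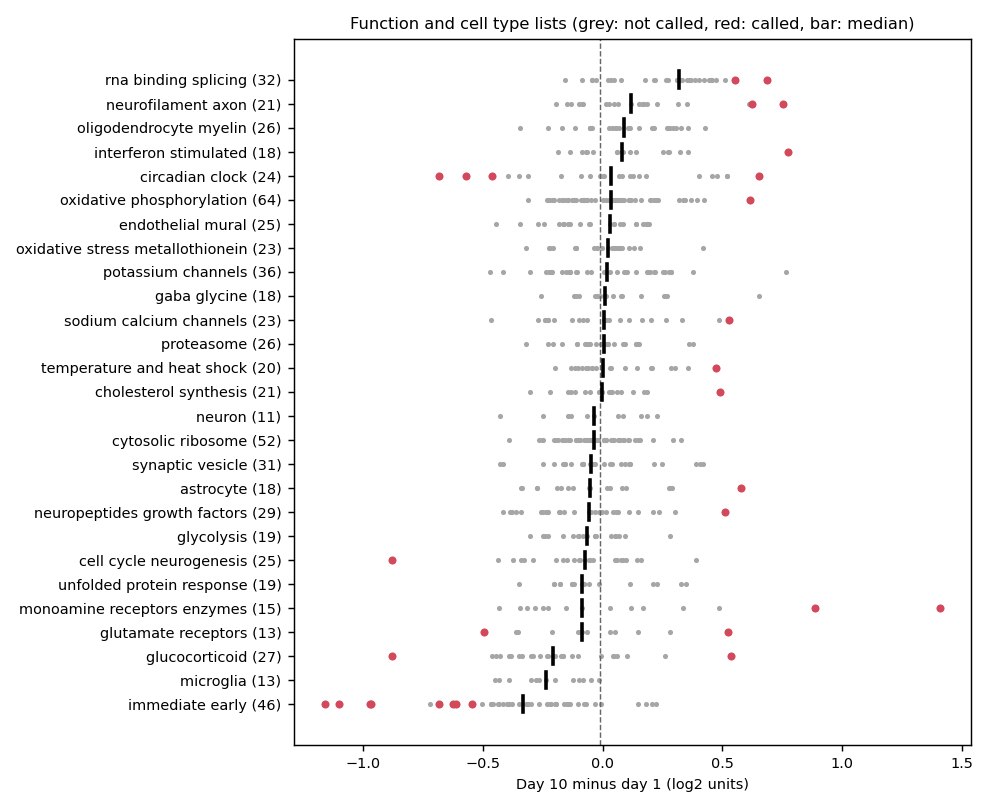
Difference of day 10 minus day 1 in log2 units (horizontal) of each measured member of the function and cell type lists, with the number measured in parentheses, called genes in red, the list's median as a bar and the median of all genes dashed. The immediate early list has the lowest median, -0.33, and the RNA binding and splicing list the highest, 0.32.

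Where a called gene had another probe, the probes mostly pointed the same way. Of 53 called genes with other probes, all of them had the sign of the brightest probe in 49 (92.5%), beside 1354 of 2273 genes (59.6%) in the whole table. The 4 exceptions were Ank1, Abi1, Ube2q2 and Atf2. Abi1, an actin regulator, differed most, with 0.51 at its brightest probe and -0.33 at the other. All probes read the same RNA on the same arrays, and called genes were chosen for large differences. A higher share than in the whole table was therefore likely from the start. Only the sign was counted, so a difference near 0 at another probe, such as 0.023 for Rbm48, also counts as the same way.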

How the data were processed

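Brain RNA of 7 samples was read on Illumina bead arrays. The deposited log2 values of the authors are per probe, and some lie below 0. The base is a reading, since the labels do not give it, and the authors' background step, normalization, filter and software are not stated in any source used. A deposited table of unlogged values has 7 columns not tied to a sample, and it was not used. The deposited values therefore took the place of any scanner-level background step.

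Probes with a value on all arrays were quantile normalized (limma 3.58.1, R 4.3.3). All 12150 named probes matched an NCBI gene table (GRCm38.p6) by Entrez number, and 1154 are unnamed here. Each gene was represented by its brightest probe. The fit (lmFit, eBayes with an intensity trend) had day and dose as terms over 6 treated arrays, with day 3 sharing the spread. It had 2 residual and 14.14 prior degrees of freedom, so most of the weight in each standard error comes from the variance trend across genes. The number of arrays limits the precision. The fit was tested on simulated data.

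The members and gene lists were chosen with earlier results of these data known. Named genes were the 20 highest and 20 lowest called genes in no region or tissue list, every called member of a function or cell type list, up to 4 called members of each region list, and the highest and lowest member of each function or cell type list. Some further genes, such as Arntl and Dbp, were named outside this rule. Region lists are given mainly by their counts. Alternatives covered scaling, the variance model, dim probes, several probes per gene, day 3, the dose block and each array left out. The dose block comes from the labels, not from replicate numbers. Deviations of same-dose arrays correlated at 0.16 between days 10 and 1, -0.055 between days 10 and 3 and 0.078 between days 3 and 1.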

Additional observations from a re-analysis of the deposited data

Results flagged for a closer look

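For 4 named genes, all uncalled, the difference of day 10 minus day 1 had opposite signs at the 2 doses. The difference between the doses was not tested, and each value sets 1 array against 1 array. Aif1, a marker of microglia, had -0.35 at 1250 mg/kg and 0.32 at 50 mg/kg. Hsp90b1, a chaperone of the endoplasmic reticulum, had -0.030 at 1250 mg/kg and 0.73 at 50 mg/kg. Rpl37a, a ribosomal protein, had 0.68 at 1250 mg/kg and -0.020 at 50 mg/kg. Celf4, a regulator of RNA in neurons, had -0.44 at 1250 mg/kg and 0.13 at 50 mg/kg.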

How the results depend on the processing

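No gene called in the comparison turned its sign in any setting tried. For these genes the day 10 and day 1 arrays did not overlap, and several settings leave the fitted difference unchanged. The kept sign therefore largely follows from the calls. Higher, lower, unlisted higher and unlisted lower calls, in that order, were 131, 336, 111 and 316 in the deposited values, 170, 266, 147 and 252 after median scaling, 161, 69, 148 and 63 with a robust variance, 79, 30, 64 and 26 with the mean of a gene's probes, and 212, 101, 181 and 88 without the day 3 arrays. Without 1 array they ranged from 52 to 213, 14 to 102, 38 to 182 and 10 to 89. The lowest counts came without the day 1 array at 1250 mg/kg, when 46 of the 174 genes were still called, beside 78 without the day 10 array at 1250 mg/kg, 106 and 109 without the day 10 and day 1 arrays at 50 mg/kg, and 174 without either day 3 array. With no dose block, which is the fit without pairing by dose, 90 higher and 32 lower genes were called, 74 and 28 of them unlisted, and all 122 were among the 174. Of the 174, 140 were called in the deposited values, 151 after median scaling, 166 with no intensity trend, 156 with a robust variance and 106 with the mean of probes. Among the brightest probes all 109 that were tested were called. Uncalled genes were checked for a turned sign only where the naming rule picked them. Of these, the difference turned for Nrn1 (-0.059 in the deposited values, -0.023 after median scaling), Aldoc (-0.019 in the deposited values), and Celf4 (0.00338 with the mean of probes). It also turned for 4 of these uncalled named genes when 1 array was left out. Celf4 ranged from -0.41 to 0.099, with positive values (0.020 and 0.099) without the day 1 or the day 10 array at 1250 mg/kg. Aif1 ranged from -0.29 to 0.26, with 0.26 and 0.21 without those arrays. Gsta3 ranged from -0.10, without day 1 at 50 mg/kg, to 0.94, and Hsp90b1 from -0.00835, without day 10 at 50 mg/kg, to 0.71. The cause was not tested. A fit without 1 array leaves a day with 1 array, which is assumed to vary like the others. Dim genes limit the comparison, since 16 called genes, 8 of them unlisted, had a day in the lowest 5% of levels, where the background step is not known.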
